A study of Mus musculus with 11 samples.

Results

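Themis2, Tifab, Gapt, Trerf1 and Trim47 are 5 mouse genes that stood high in alveolar macrophages on day 30 after a course of CpG injections. They were chosen for that rise, so their levels in the day 30 arrays are a description and carry no test. They are 5 of the 19505 genes with a symbol on the array, each measured by 1 transcript cluster (the array's probe set for a gene), and all 5 passed the filter on dim signals that left 12143 genes to test. Each of the 5 lay above the filter, an array's 40th percentile, on all 11 arrays, but Gapt and Trim47 lay below the higher background level on every day 10 array.

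RNA of alveolar macrophages, which live in the airspaces of the lung and take up particles and surfactant, was measured on 11 Affymetrix arrays, 1 for each of 11 mice. The model is of macrophage activation syndrome (MAS), a hyperinflammatory state with overactive macrophages. All mice were female C57BL/6J, bought at 6 weeks of age, and had 5 injections in a period of 10 days. The resolution group (n = 4) was given CpG 1826 and lavaged on day 30, the acute group (n = 3) was given CpG 1826 and lavaged on day 10, and the control group (n = 4) was given PBS and lavaged on day 10. CpG 1826 is an oligonucleotide that activates the DNA sensor Tlr9. Lavage cells were purified by adherence, a step that selects by attachment and not by a marker. The samples are labelled as biological replicates. No PBS group of day 30 was analysed here, so the CpG course and the later day of lavage cannot be told apart in any comparison of resolution with control.

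The 5 genes act in different parts of the cell's signalling. Themis2 is a scaffold of haematopoietic cells related to Themis, the T cell selection protein; it binds the adaptor Grb2 and the exchange factor Vav1 and is known from B cells and macrophages. Tifab carries a forkhead-associated domain like its relative Tifa and restrains the branch in which Tifa and the ubiquitin ligase Traf6 activate NF-kB downstream of innate receptors. Gapt is a transmembrane adaptor that binds Grb2 and was described in B cells and myeloid cells. Trerf1 is a zinc finger regulator of transcription, known in human cells for acting on the steroid synthesis gene CYP11A1, and shares a domain with the deacetylase scaffold Mideas. Trim47 is a member of the tripartite motif family, whose proteins mostly act as ubiquitin ligases.

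The DNA before the annotated starts was set beside the levels because the genes stood high in the same arrays. The sequences are those of RefSeq on GRCm38.p6, found for all 5 genes, and the motifs searched in the 250 bases before each start, on both strands, were AGGAAG (PU.1 and other ETS factors), GGGCGTGG (Kruppel-like factors), TGANTCA (AP-1), CACGTG (E-box), GAAA followed after any 2 bases by GAAA (interferon response element), TTCNNNGAA (STAT factors), TGACGTCA (cyclic AMP response element) and AAAGGTCA (NBRE of the Nr4a receptors). Matches of the motifs are in capitals. The stretches shown are those with a match, trimmed to the bases outside any annotated gene, or cut to 30 bases around a match where the whole window lies within an annotated gene; all read 5′ to 3′ on the gene's strand. They are, in order, Themis2 at chr4:132796365-132796614 on the minus strand, Gapt at chr13:110357221-110357422 on the minus strand, Tifab at chr13:56178934-56178963 on the minus strand, and Trerf1 at chr17:47230129-47230158 on the plus strand.
Themis2: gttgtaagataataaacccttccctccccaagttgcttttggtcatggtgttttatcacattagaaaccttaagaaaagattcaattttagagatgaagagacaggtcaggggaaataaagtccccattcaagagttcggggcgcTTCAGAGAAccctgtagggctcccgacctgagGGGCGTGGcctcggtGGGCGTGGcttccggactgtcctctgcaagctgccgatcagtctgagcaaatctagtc
Gapt: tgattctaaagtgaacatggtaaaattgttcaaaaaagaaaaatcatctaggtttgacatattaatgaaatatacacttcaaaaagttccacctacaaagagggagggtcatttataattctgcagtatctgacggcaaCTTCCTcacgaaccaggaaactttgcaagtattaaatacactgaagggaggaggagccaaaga
Tifab: cattacgtacggCTTCCTtgaccaacccca
Trerf1: agctaaccctggCTTCCTccccagccccag

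No motif was shared by all 5 windows. The ETS letters AGGAAG stood, in 1 or the other direction, before Gapt, Tifab and Trerf1, and in 29.5% of the 32851 promoter windows of the table (28.5% for the genes tested here). Gapt and Trerf1 had 2 such matches each, of which 1 each is shown. Themis2 alone of the 5 had the Kruppel-like factor letters, at 51 to 58 and again at 66 to 73 bases before its start; 4.79% of all windows held at least 1 such match, as did 8.09% of those of the genes tested here, and 0.615% of all windows held 2 or more. Its window also held 1 match to the STAT letters, which stood in 7.02% of all windows and 6.20% of those of genes tested. Trim47 had no match to any of the 8 motifs in a window of 75.2% G and C, a share exceeded in 3.61% of windows, against 36.8% in the window of Gapt. A match is a string of letters and not a measured site.

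The arrays were alike in signal. The median intensity of an array lay between 51.4 and 57.0, and its background, the 90th percentile of 23 probe sets that match no mouse sequence, between 6.12 and 6.24 on the log2 scale. All levels below are log2(intensity + 1), and a difference of 1 on this scale is a 2-fold change. The 13 measured alveolar macrophage markers were above background in every group. Their mean level was 14.93 to 15.01 in resolution, 14.75 to 14.84 in acute and 14.82 to 14.90 in control arrays. Single markers moved in both directions. In resolution versus control 4 were called higher (Cidec, Pparg, Krt79 and Mertk) and 2 lower (Fabp4 and Atp6v0d2), where 18.6% of all genes were called. Against acute, 3 were called higher (Cidec, Pparg and Mertk) and 1 lower (Fabp4). In acute versus control 0 of 13 were called. Of 10 measured B and plasma cell markers 8, among them Cd79a, Cd79b, Ms4a1 and Pax5, were below background on all 11 arrays, and the list's mean level was 4.84 to 4.87 in resolution, 4.96 to 5.03 in acute and 5.03 to 5.55 in control arrays. Likewise 7 of 9 NK cell markers, 6 of 10 T cell markers, 7 of 9 endothelial markers and 6 of 7 fibroblast markers were below background throughout. Monocyte and recruited macrophage markers averaged 6.80 to 6.90 in resolution, 7.17 to 7.54 in acute and 6.71 to 7.22 in control arrays. Of the 11 measured genes of this list 4 were below background on all arrays and 8 were tested. Of these 8, Ccr2 was called higher and Cd14 lower in resolution than in control arrays. Against acute, Fn1 was called higher and Ly6c1 and Cd14 lower in resolution. Ly6c1 was also called higher in acute than in control arrays. Of the 3 NK cell markers tested, Il2rb was called higher in acute than in control arrays. Il2rb and Klrd1 were both called lower in resolution than in acute arrays, and none of the 3 was called in resolution versus control. The 2 measured red cell markers averaged 12.35 on acute replicate 1, the lowest acute array for Themis2, Tifab, Gapt and Trerf1, against 7.0 and 8.11 on the other acute arrays, 6.08 to 7.27 in resolution and 6.54 to 7.16 in control. Lung epithelium markers differed between groups, with a mean level over 14 measured genes of 7.66 to 7.98 in resolution, 9.06 to 9.54 in acute and 8.13 to 8.50 in control arrays. From this list 12 genes were tested, and 4 were called higher and 0 lower in acute than in control arrays. In resolution 4 were called lower than in control and 7 lower than in acute arrays, while 1, Krt19, was called higher in both comparisons. Among 6 neutrophil markers tested, Csf3r was called higher and Cxcr2 and Ltf lower in resolution than in control and than in acute arrays. Among 7 dendritic cell markers tested, Batf3 was called higher in resolution than in both other groups. Xcr1, Siglech and Itgae were called lower against acute alone, and Xcr1 and Itgae were below background on all arrays. The part of the epithelial, red cell, recruited cell, neutrophil, dendritic cell, T cell and NK cell transcripts in the results below was not tested. In a bulk sample, fewer cells of a type and less RNA per cell cannot be told apart.

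**Figure D1:**
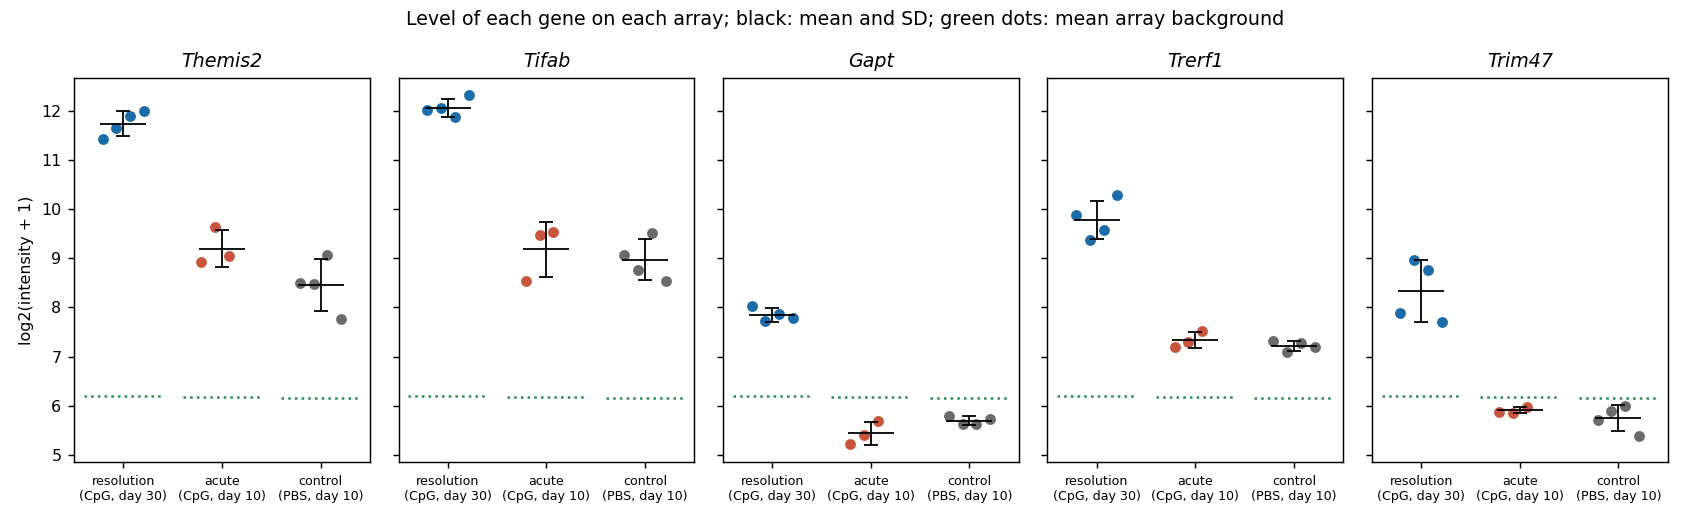
Level of Themis2, Tifab, Gapt, Trerf1 and Trim47, as log2(intensity + 1) on the y axis, on each of the 4 resolution, 3 acute and 4 control arrays (dots); black bars give the group mean and SD and green dotted lines the mean background of the group's arrays. For all 5 genes the resolution arrays lie above all other arrays, and Gapt and Trim47 lie below background in the acute and control groups.

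Themis2, the scaffold that binds Grb2, stood at 11.43, 11.65, 11.89 and 12.00 on the resolution arrays, at 8.92, 9.63 and 9.05 on the acute arrays and at 8.50, 8.48, 9.07 and 7.77 on the control arrays. The resolution arrays were all high and shared no part of their range with the other groups, while the acute and control ranges overlapped. The resolution mean of 11.74 ± 0.26 (SD, n = 4) was 9.77-fold above the control mean of 8.46 ± 0.53 (SD, n = 4), a difference of 3.29 ± 0.25 (SE), and 5.84-fold above the acute mean of 9.20 ± 0.38 (SD, n = 3). Among the 12143 genes tested Themis2 had rank 2 of the rises over control, and the gap between its lowest resolution and its highest control array was 2.36.

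Tifab, the relative of Tifa, stood at 12.01, 12.05, 11.87 and 12.32 on the resolution arrays, at 8.53, 9.48 and 9.54 on the acute arrays and at 9.06, 8.76, 9.51 and 8.53 on the control arrays. Acute replicate 1 and control replicate 4 were the low arrays of their groups, and the acute and control ranges overlapped almost fully. The resolution mean was 12.06 ± 0.19 (SD, n = 4), 7.35-fold above acute at 9.18 ± 0.56 (SD, n = 3) and 8.56-fold above control at 8.97 ± 0.42 (SD, n = 4).

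Gapt, the transmembrane adaptor, was detected in the resolution arrays alone. It stood there at 8.04, 7.72, 7.86 and 7.78, against 5.23, 5.40 and 5.69 in acute and 5.80, 5.64, 5.62 and 5.74 in control arrays, where 0 of 3 and 0 of 4 arrays were above background. The rise was therefore at least 3.23-fold over control and at least 3.17-fold over acute, with measured differences of 2.15 ± 0.12 (SE) and 2.41 ± 0.13 (SE). Its 4 resolution arrays lay within 0.32 of each other.

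Trerf1, the zinc finger regulator, stood at 9.88, 9.38, 9.57 and 10.28 on the resolution arrays, at 7.20, 7.29 and 7.52 on the acute arrays and at 7.31, 7.09, 7.27 and 7.19 on the control arrays. Acute and control arrays fell in 1 narrow band above background, and the resolution arrays spread over 0.90 well above it. The resolution mean of 9.78 ± 0.39 (SD, n = 4) was 5.43-fold above acute at 7.34 ± 0.16 (SD, n = 3) and 5.91-fold above control at 7.21 ± 0.10 (SD, n = 4).

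Trim47, the ubiquitin ligase gene, stood at 7.88, 8.96, 8.77 and 7.71 on the resolution arrays, at 5.88, 5.86 and 5.98 on the acute arrays and at 5.71, 5.90, 5.99 and 5.39 on the control arrays. None of the 3 acute or 4 control arrays was above background, and resolution replicates 2 and 3 stood above replicates 1 and 4. The rise was at least 4.43-fold over acute and at least 4.50-fold over control, with a measured difference from control of 2.59 ± 0.25 (SE) between means of 8.33 ± 0.63 and 5.75 ± 0.26 (SD, n = 4 each).

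All 5 genes had resolution arrays that did not overlap with control, which held for 11.4% of the 12143 genes in this direction. Against acute the share was 13.5%. Among all genes, 9.60% passed limma's test with a rise over control and 7.77% with a rise over acute. The 5 genes were chosen on this rise, so their lack of overlap is a description and these shares only give the background. Among the rises over control Themis2, Tifab and Trerf1 had ranks 2, 3 and 12, and among those over acute 6, 4 and 7; Gapt and Trim47, whose rises are bounds, are given no rank. The means of Themis2, Tifab and Trerf1 were highest in resolution, then acute, then control, but their acute and control arrays overlapped. For Gapt and Trim47 the acute and control groups, both below background, have no order.

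**Figure D2:**
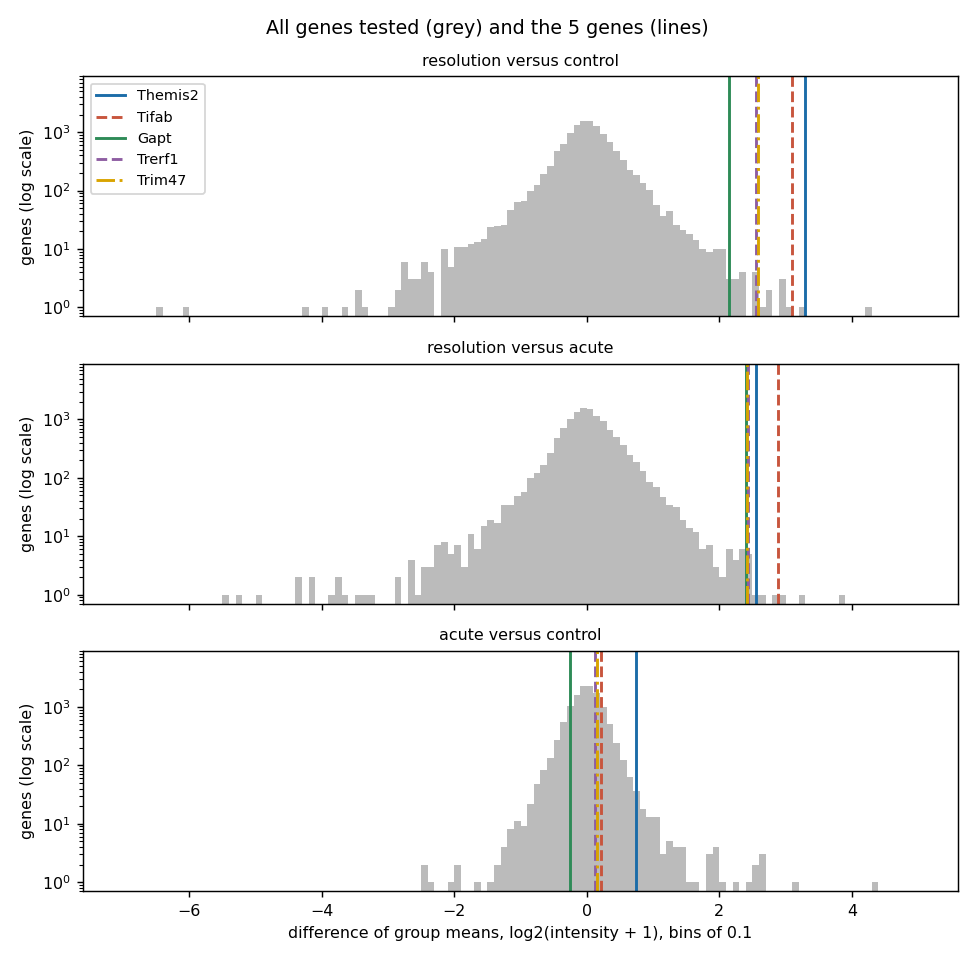
Differences of group means on the log2(intensity + 1) scale (x axis) for all 12143 genes tested, as histograms with the number of genes on a log axis, for resolution versus control, resolution versus acute and acute versus control from top to bottom; coloured lines mark the 5 genes. The 5 genes lie in the right tail of the upper panels, at 2.15 to 3.29 and 2.41 to 2.88, and between -0.26 and 0.74 in the lowest panel.

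Acute versus control asks whether the genes already differed at the end of the CpG injections. This contrast did not choose the genes, although it shares its control arrays with a contrast that did. Gapt and Trim47 were below background in both groups and could show no difference here, which leaves 3 genes. None of these 3 passed limma's test (0 of 3, against 0.239% of all genes, 0.189% higher and 0.0494% lower), and in none were all acute arrays above all control arrays, as in 4.71% of genes. Among the 3, 1 gene, Themis2, had an unadjusted p under 0.05, as 9.05% of all genes had. Themis2 was 0.74 ± 0.27 (SE) higher in acute arrays, with a 95% interval of 0.16 to 1.32 and adjusted p = 0.425 by limma. Of the 3 acute arrays 2 lay below the highest control array. The adjusted p of Themis2 ranged from 0.214 to 0.788 over the alternatives.

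Tifab differed by 0.22 ± 0.26 (SE) between acute and control, with an interval of -0.35 to 0.79 and adjusted p = 0.854 by limma. Trerf1 differed by 0.12 ± 0.19 (SE), with an interval of -0.28 to 0.53 and adjusted p = 0.889 by limma. The measured values of Gapt and Trim47 differed by -0.26 ± 0.13 and 0.16 ± 0.27 (SE), at the level of the background.

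**Figure D3:**
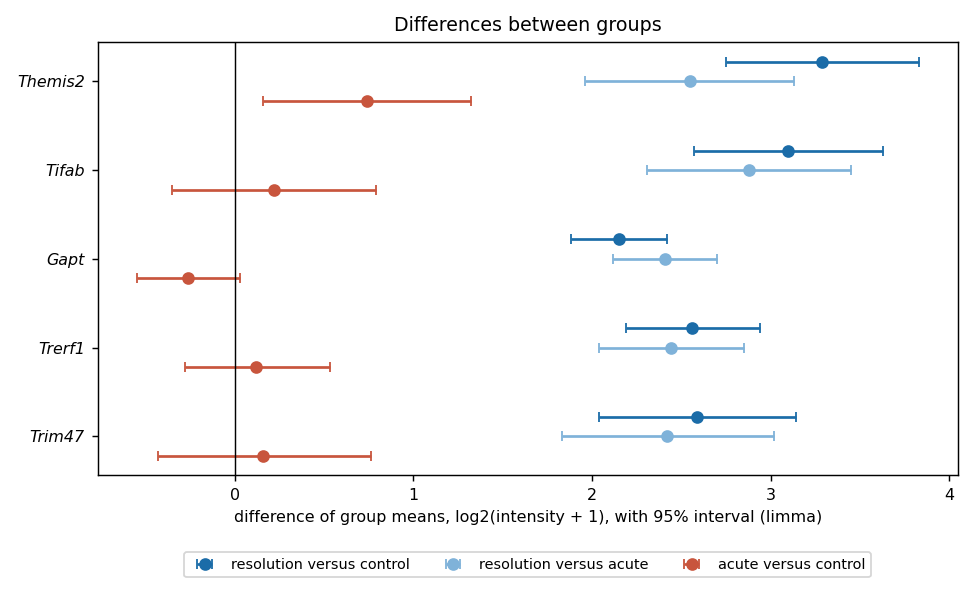
Difference of group means on the log2(intensity + 1) scale (x axis) with limma's 95% interval for the 5 genes (rows), for resolution versus control, resolution versus acute and acute versus control. The intervals against resolution start at 1.83 or higher, while those of acute versus control include 0 except for Themis2, at 0.16 to 1.32.

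The genes varied in different ways among mice of 1 group. In the resolution arrays Trim47 had an SD of 0.63, larger than that of 98.8% of the genes tested, and Trerf1 had 0.39, larger than that of 89.2%. Gapt was the steadiest, with an SD of 0.14 against a median of 0.21 over all genes. Trim47 was high in resolution replicates 2 and 3, by 0.63 and 0.44 above its group mean, where Trerf1 was low, by -0.40 and -0.21; in replicate 4 Trim47 was at -0.62 and Trerf1 at 0.50. In the control arrays Themis2 and Tifab deviated by 0.62 and 0.54 in replicate 3 and by -0.69 and -0.43 in replicate 4, but by 0.02 and -0.21 in replicate 2. They also lay on opposite sides of their means in acute replicate 3, at -0.15 and 0.36, and in resolution replicate 3, at 0.15 and -0.20. On every other array they lay on the same side, as in acute replicate 1, at -0.28 and -0.65, and acute replicate 2, at 0.43 and 0.29. Their control SDs of 0.53 and 0.42 were larger than those of 96.2% and 91.2% of genes, while Trerf1 had 0.10. Control replicate 4 also had the highest mean level of neutrophil markers, 7.38 against 6.41 to 6.74 in the other controls. It was the highest control as well for markers of B and plasma cells, monocytes, NK cells, lung epithelium, endothelium, fibroblasts and red cells. For T cell, dendritic cell and alveolar macrophage markers it was not. Without control replicate 4 the rise of Themis2 over control was 3.06 and that of Tifab 2.95, and that of Trim47 was 2.47.

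**Figure D4:**
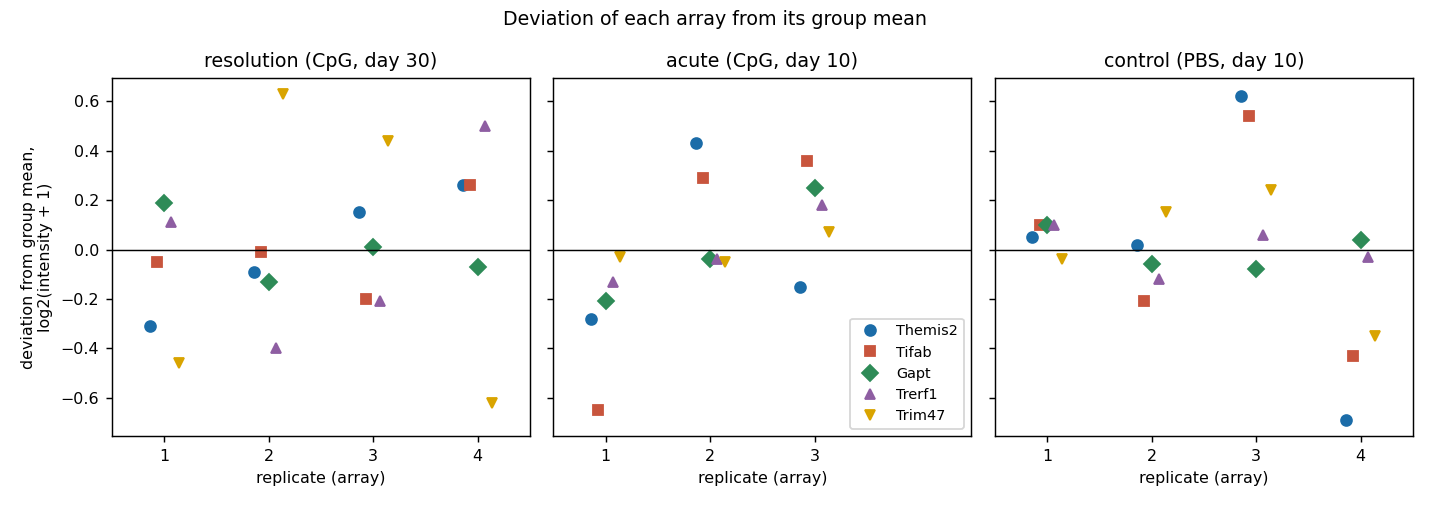
Deviation of each array from its group mean on the log2(intensity + 1) scale (y axis) for the 5 genes, by replicate (x axis), in resolution, acute and control arrays. Trim47 and Trerf1 lie on opposite sides of 0 in each of the 4 resolution arrays. Themis2 and Tifab lie on opposite sides of 0 in control replicate 2 and in resolution and acute replicate 3, and on the same side on every other array.

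The genes whose profiles were most like those of the 5 were found by the root mean square distance between log2 levels over the 11 arrays, each profile centred on its own mean. The arrays are the same ones that chose the 5 genes, so this is a description. Nearest to Themis2 were Il6ra, a chain of the interleukin-6 receptor, at 0.29, Tifab at 0.33 and C5ar2, a receptor for the complement fragment C5a, at 0.42. Il6ra stood at 13.69, 13.74, 13.79 and 14.33 on resolution arrays, at 11.35, 11.98 and 11.15 on acute arrays and at 11.53, 10.98, 11.46 and 9.78 on control arrays, with its lowest level in control replicate 4 like Themis2. Nearest to Tifab were Themis2, Trerf1 at 0.39 and Rcan1, an inhibitor of calcineurin, at 0.40.

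Gapt was most like Tacc2, a centrosomal coiled-coil protein, at 0.22, Tlr5, the receptor of flagellin, at 0.23, and Slco2b1, an organic anion transporter, at 0.24. All 3 had acute means below control, by -0.11, -0.26 and -0.37, beside resolution minus control of 1.94, 1.99 and 1.92. Gapt itself, below background in both groups, has no order of acute and control to compare with theirs. Trerf1 was most like Rcan1 at 0.28, Gapt at 0.29 and P2ry6, a receptor for uridine nucleotides, at 0.33. Trim47 was most like Id1, an inhibitor of basic helix-loop-helix factors, at 0.26, Tsc22d3, the glucocorticoid-induced leucine zipper gene, at 0.30, and C5ar2 at 0.35. Tsc22d3 stood at 9.91, 10.79, 10.46 and 10.00 on resolution arrays, at 7.66, 7.84 and 8.17 on acute arrays and at 8.27, 7.98, 8.14 and 8.12 on control arrays. Its resolution replicates 2 and 3 were the high ones, as for Trim47. Among the 5 genes themselves the closest pair was Gapt and Trerf1 at 0.29 and the farthest Themis2 and Gapt at 0.66. Both distances include the values of Gapt below background.

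In the list of Themis2 partners and antigen receptor signalling genes more genes fell than rose. The list holds Grb2 and Vav1, which bind Themis2, and further genes of receptor signalling. Of 20 measured genes of this list 3 rose and 7 fell in resolution versus control, where 9.60% of all genes rose and 9.0% fell, and the list's median difference was -0.13 against 0.00 over all genes. Fyn, a Src family kinase, fell 4.31-fold, by 2.11 ± 0.14 (SE), to 9.38 in resolution arrays, against 11.49 in control arrays (limma adjusted p = 2.01e-06). Grb2, the adaptor that Themis2 and Gapt bind, fell 1.69-fold, to 11.87 ± 0.11 (SD, n = 4) in resolution arrays, against 12.63 ± 0.24 (SD, n = 4) in control arrays (limma adjusted p = 0.00154), and Vav3, an exchange factor, fell 1.85-fold. The 3 that rose were Dok2, an inhibitory adaptor, 3.32-fold, Csk, the kinase that inactivates Src kinases, 2.36-fold, and Ptpn6, an inhibitory phosphatase. Against acute, 2 rose and 7 fell, with Fyn 4.89-fold lower, where 7.77% of all genes rose and 6.69% fell. The call of Vav3 against acute was lost with the replicate block, with only the 2 groups in the fit and without acute replicates 1 or 2 or resolution replicate 1 (limma adjusted p = 0.0604 to 0.111). In acute versus control 0 of 20 passed limma's test. Themis itself was below background on all 11 arrays.

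In the Tifab pathway the nearest partners, Tifa, Traf6 and Usp15, did not pass the test in resolution versus control. Of 18 measured genes 2 rose and 5 fell in resolution versus control, where 9.60% of all genes rose and 9.0% fell, with a median difference of -0.13, and 0 of 18 passed in acute versus control. Tifa, the protein that Tifab restrains, stood at 7.32 in resolution, 8.04 in acute and 7.46 in control arrays; its difference from control was -0.14 ± 0.24 (SE, limma adjusted p = 0.753). Traf6 was 0.45 ± 0.17 (SE) higher than in control (limma adjusted p = 0.0794, and 0.0271 without control replicate 3), and the deubiquitinase Usp15 differed by -0.12 ± 0.12 (SE). The genes that fell were Ikbkg, the scaffold of the IkB kinase, at least 1.49-fold, the autophagy receptor Sqstm1, 2.32-fold, the p53 ligase Mdm2, 2.29-fold, the A20-binding protein gene Tnip1 and the Toll-like receptor adaptor Ticam1. Ikbkb, a catalytic subunit of the same kinase, rose, as did Tab3, with limma adjusted p = 0.0499. Against acute, 1 rose, Peli1, and the same 5 fell (14.5% of all genes passed, 6.69% with a fall). The call of Ikbkg against acute ended with the replicate block and without acute replicates 1 or 3 or resolution replicates 3 or 4 (limma adjusted p = 0.0506 to 0.113), and its means of 5.20 in resolution and 6.10 in acute both lie below background.

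**Figure D5:**
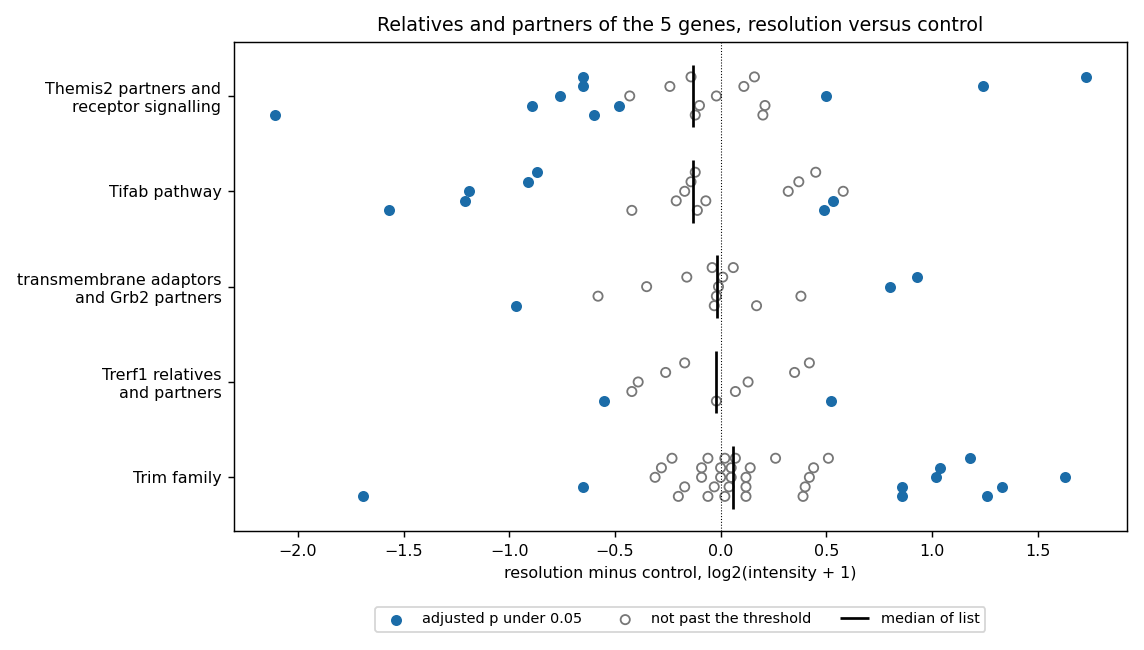
Resolution minus control on the log2(intensity + 1) scale (x axis) for the measured genes of the 5 lists of relatives and partners (rows); filled dots passed limma's test at an adjusted p under 0.05, open dots did not, and black bars give each list's median. The medians lie between -0.13 and 0.06, and the list of Trim genes has 8 filled dots to the right and 2 to the left.

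The transmembrane adaptors and Grb2 partners related to Gapt mostly did not pass the test, with 2 of 14 measured genes up, 1 down and a median of -0.02 in resolution versus control, near the 9.60% and 9.0% of all genes. Gab1, a docking protein, rose 1.90-fold and the exchange factor gene Sos2 rose 1.74-fold (limma adjusted p = 0.0285), while Cblb, a ubiquitin ligase that dampens receptor signalling, fell 1.96-fold to 13.43 in resolution arrays, against 14.40 in control arrays. The call of Sos2 was lost after quantile normalization and when any of control replicates 1, 2 and 3 or of resolution replicates 3 and 4 was left out (limma adjusted p = 0.0503 to 0.0801). Lat2, an adaptor related to Lat, stood near background at 6.19 in resolution, 6.29 in acute and 6.12 in control arrays. Against acute, Sos2 rose and Cblb and Lat fell, and 0 of 14 passed in acute versus control. Lat is also in the list of T cell markers, of which 5 were tested. Of these 5, 0 rose and 2, Cd3d and Lat, fell against acute, and Cd3d alone was called, lower, against control. The part of T cell transcripts in the fall of Lat was not tested. The call of Lat (limma adjusted p = 0.0375) ended without any 1 of the 3 acute arrays, without resolution replicates 2 or 4 and with the replicate block (0.0790 to 0.108), and that of Sos2 (0.0139) ended without acute replicates 1 or 3 (0.0508 and 0.0630).

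Of 11 measured relatives and partners of Trerf1 1 rose and 1 fell in resolution versus control, near the shares over all genes (9.60% and 9.0%). Crebbp, a histone acetyltransferase, fell 1.47-fold. The deacetylase gene Hdac2 rose 1.43-fold (limma adjusted p = 0.0252), a call lost when any of control replicates 2, 3 and 4 or of resolution replicates 1 and 3 was left out (limma adjusted p = 0.0600 to 0.0711). Mideas, which shares a domain with Trerf1, was below background in all groups, and Dnttip1, its partner in the same deacetylase complex, differed by 0.35 ± 0.24 (SE, limma adjusted p = 0.352). Against acute, Hdac2 alone rose, with a call that ended without acute replicates 1 or 2 or resolution replicates 1 or 3 (limma adjusted p = 0.0556 to 0.0930), and none fell. In acute versus control 0 of 11 passed.

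Of 38 other numbered genes of the tripartite motif family measured above the filter 8 rose and 2 fell in resolution versus control, where 9.60% of all genes rose and 9.0% fell. The other 28 did not pass, and the median difference was 0.06. Trim8, a ligase of cytokine and NF-kB signalling, rose 3.09-fold to 12.82 in resolution arrays, against 11.19 in control arrays. Trim25, which ubiquitinates the RNA sensor RIG-I, rose 2.51-fold to 13.66 in resolution arrays, against 12.33 in control arrays. Trim65, a ligase for the RNA sensor MDA5, rose at least 2.39-fold. Trim13, a ligase of the endoplasmic reticulum, fell 3.23-fold to 7.15 ± 0.10 (SD, n = 4) in resolution arrays, against 8.84 ± 0.53 (SD, n = 4) in control arrays. Trim24, Trim12c, Trim14, Trim30b and Trim12a also rose and Trim36 also fell. The means of Trim14, 5.94 in resolution and 4.92 in control arrays, both lie below background. Trim12a and Trim12c are similar copies whose probes may share signal. Against acute, 9 rose and 1 fell, with Trim25 2.46-fold higher, where 7.77% of all genes rose and 6.69% fell; Trim14 and Trim46 among the 9 had both means below background. In acute versus control 0 of 38 passed limma's test, where 0.239% of all genes did.

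The genes that lie beside the 5 on the chromosomes gave a comparison that the choice did not use. Of the 10 nearest protein-coding neighbours by RefSeq order on GRCm38.p6 8 were measured above the filter, and 1 of these rose and 2 fell in resolution versus control, where 18.6% of all genes changed. The riser was Trim65, which lies beside Trim47. It stood at 7.26, 7.39, 7.27 and 8.01 in resolution arrays, at 6.22, 6.75 and 6.08 in acute arrays and at 5.97, 6.02, 6.50 and 6.42 in control arrays, so that its resolution arrays were high and did not overlap with the others. Its difference from control was 1.26 ± 0.21 (SE, limma adjusted p = 0.00104) and that from acute 1.13 ± 0.22 (SE, limma adjusted p = 0.0047). Trim65 was highest in resolution replicate 4, where Trim47 was lowest. Wbp2, on the other side of Trim47, fell by 0.41 ± 0.10 (SE, limma adjusted p = 0.0156).

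Beside Gapt lies Plk2, a polo-like kinase gene, which went the opposite way. Plk2 stood at 6.82, 6.07, 5.89 and 6.01 in resolution arrays, at 12.18, 11.02 and 11.21 in acute arrays and at 12.07, 12.50, 11.90 and 12.49 in control arrays. Only resolution replicate 1 was above background, and no resolution array overlapped with the others. Plk2 was at least 66.1-fold lower than in control. Its difference from control was -6.05 ± 0.27 (SE, limma adjusted p = 6.81e-08), with 1 gene of 12143 having a larger fall, while Gapt on the same arrays differed by 2.15. Resolution replicate 1 was the highest resolution array for both genes. The measured neighbours of Themis2 (Rpa2 and Ppp1r8), Tifab (Macroh2a1) and Trerf1 (Ubr2 and Mrps10) did not pass the test in resolution versus control, with differences of -0.21 to 0.50. Against acute, Trim65 rose and 3 neighbours fell, Plk2, Rpa2 and Wbp2. Rpa2 fell by 0.67 (limma adjusted p = 0.0151, and 0.0711 without acute replicate 2) and Wbp2 by 0.39 (limma adjusted p = 0.0381, and 0.05 to 0.138 in 11 of 20 alternatives). Neurog1 beside Tifab and Rab3c beside Gapt were below background on every array.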

How the data were processed

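Per the submitters' processing notes, the authors made the deposited values with Affymetrix Expression Console. Its version, its summary algorithm and the annotation build were not given in the sources used here. Per the labels, a Pico reagent kit made biotin-labelled targets. Of the 28846 probe sets with a deposited linear intensity, 19572 carry 1 gene symbol, 0 several and 9274 no symbol. All 19572 gene identifiers were found in RefSeq and 0 symbols had to be updated; for 55 of 19505 symbols the cluster with the highest mean stood for the gene. Intensities were used as log2(value + 1), without further scaling.

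A gene was tested where at least 3 of 11 arrays lay above their array's 40th percentile (12143 genes). All 11 arrays entered a single limma model with a mean for each group (limma 3.58.1, R 4.3.3; 8 residual and 4.48 prior degrees of freedom); tests were two-sided, Benjamini-Hochberg adjusted over the genes tested and called under 0.05. SE are limma's moderated ones. The procedure was tested on simulated data. A gene was below background where no array exceeded its own background. Where the lower group's mean was not more than 1 SD above its arrays' mean background, the fold was taken to the higher of that background and that mean and printed as a bound ("at least"). With both groups below background no fold was computed. Precision is limited by the number of arrays.

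The 5 genes, the lists of partners and markers and the motifs were chosen with earlier results of these data, and for the motifs the sequences, known. Named were the 5 genes, the 3 most alike genes of each, up to 4 called genes of each list and contrast with the largest differences, and Themis, Tifa, Traf6, Usp15, Grb2, Lat2, Mideas and Dnttip1; further genes were named where a count was 5 or fewer, or for completeness, and neighbouring genes by position. Same-numbered arrays did not deviate together from their group means (correlations of -0.12 to 0.09 over genes), so the numbers were not taken as pairs. Alternatives were other pseudocounts, filters, scalings and variance settings, a replicate block, fits of the 2 groups alone and leaving out each array.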

Additional observations from a re-analysis of the deposited data

How the results depend on the processing

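For the 5 genes, 15 differences were recomputed under 20 alternatives, 11 of which left out 1 array each. In acute versus control, the values of Themis2, Tifab and Trerf1 kept their direction and none of them passed the threshold. Those of Gapt and Trim47, also among the 100 values of this contrast, lie at the level of the background. Their direction and lack of a call say nothing here. The other 200 belong to the rise that chose the genes, so their direction says nothing on stability; of these 2 moved by more than the spread between arrays, both with a pseudocount of 16, which gave Gapt 1.88 above control and 2.07 above acute. Over the single arrays left out, resolution minus control ranged from 3.06 to 3.49 for Themis2, from 2.95 to 3.28 for Tifab, from 2.09 to 2.20 for Gapt, from 2.40 to 2.70 for Trerf1 and from 2.38 to 2.79 for Trim47.

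The number of genes called in acute versus control, 29, was 56 with an intensity trend and robust moderation, 16 with only the 2 groups in the fit and 6 to 29 without single arrays (6 without acute replicate 2, 10 without acute replicate 3, 13 without control replicate 1 and 18 without control replicate 2). The 2259 genes of resolution versus control became 1829 to 2242 and the 1755 of resolution versus acute 1069 to 1837 without single arrays, lowest without acute replicate 1. With the replicate block 25, 2120 and 1455 genes were called, although the labels share only a number. In acute versus control the block gave no call for Themis2, Tifab or Trerf1. Differences near 0 changed sign: Grb2 in acute versus control was -0.01 at a common median and -0.09 to 0.09 without single arrays; Dnttip1 against acute was 0.05 with the replicate block and -0.26 to 0.03 without single arrays; and without single arrays Lat2 was -0.11 to 0.33 against control and -0.28 to 0.01 against acute, and Tifa -0.24 to 0.05 against control. The causes were not tested. Using another cluster of the same symbol was not run, since each of the 5 genes has 1 cluster.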
